A study of Mus musculus with 8 samples.

Results

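The Slc25 family of mitochondrial carriers was examined in hearts of mice with and without floxed alleles of Igf1r, the receptor gene for insulin-like growth factor. Members were the genes whose symbol begins with Slc25a and that a probe of the array matched through its accession, 47 of the 48 such symbols in the gene table (56 of 39429 probes). The one without a probe was Slc25a5-ps, a pseudogene. A member was kept if a probe of it passed the scanner's mark for signal well above background on 4 or more of 8 arrays. This left 38 genes with 46 probes, among 21434 genes and unnamed features kept in all. The brightest kept probe stood for its gene. The dimmest case inside the filter was Slc25a18, which was well above background on 2 of 4 control and 4 of 4 dtg arrays. The other 37 passed on every array, and those outside the filter passed on 1 array at most.

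RNA of 8 hearts from male C57BL6 mice was measured, each on its own 1-colour array. The 4 control mice carried Cre recombinase and had no floxed IGF-1R. The 4 dtg (double transgenic) mice were merCremer/+ IGFloxP/IGFloxP, so they carried a Cre that tamoxifen activates together with loxP sites on both copies of the receptor gene. The treatment described for the study was 500 µg of 4OH-tamoxifen in 100 µl of peanut oil on each of 10 days from an age of 8 months, to remove exon 3 of the receptor, with hearts taken 6 weeks later. The labels name neither the promoter that drives merCremer nor the part of the heart that was taken, and they do not say that each sample came from a separate animal. The p-values therefore cover the spread among these 8 samples, part of which may be technical. In a whole-tissue sample, fewer cells of a type and less RNA per cell cannot be told apart.

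Most carriers of this family sit in the inner mitochondrial membrane, where they exchange particular metabolites between the matrix and the space outside. In heart muscle they bring in ADP and phosphate for ATP synthesis and send ATP out to the contractile machinery. Others move acylcarnitines for fat oxidation, the reducing equivalents of the malate-aspartate shuttle, amino acids, cofactors and iron.

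The upstream sequences of 4 members are shown because these genes serve the main carrier tasks of a cardiac mitochondrion or stood apart in single hearts below, and because each holds a searched motif. They are the 250 bases before the annotated start, from RefSeq on GRCm38.p6, written 5′ to 3′ on the gene's strand. They come from chr8:46211063-46211312 (minus strand), chr10:91123968-91124217 (minus strand), chr9:108661886-108662135 (plus strand) and chr9:97111042-97111291 (minus strand). Capitals mark the motif that was found, CCGGAAG in the first 3 and TGACGTCA in the last.
Slc25a4: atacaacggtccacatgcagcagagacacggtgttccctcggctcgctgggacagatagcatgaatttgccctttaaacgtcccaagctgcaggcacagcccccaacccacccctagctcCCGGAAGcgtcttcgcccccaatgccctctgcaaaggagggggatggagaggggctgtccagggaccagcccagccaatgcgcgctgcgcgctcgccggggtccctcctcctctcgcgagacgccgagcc
Slc25a3: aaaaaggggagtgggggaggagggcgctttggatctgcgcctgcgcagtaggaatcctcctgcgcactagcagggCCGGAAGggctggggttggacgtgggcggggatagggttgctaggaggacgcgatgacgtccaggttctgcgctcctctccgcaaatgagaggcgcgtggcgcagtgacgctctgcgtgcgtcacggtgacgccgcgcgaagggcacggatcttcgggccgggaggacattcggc
Slc25a20: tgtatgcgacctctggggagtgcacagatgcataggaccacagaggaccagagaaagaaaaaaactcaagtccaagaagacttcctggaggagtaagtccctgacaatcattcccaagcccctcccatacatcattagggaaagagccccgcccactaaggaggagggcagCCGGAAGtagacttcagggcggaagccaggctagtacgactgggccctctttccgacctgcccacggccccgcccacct
Slc25a36: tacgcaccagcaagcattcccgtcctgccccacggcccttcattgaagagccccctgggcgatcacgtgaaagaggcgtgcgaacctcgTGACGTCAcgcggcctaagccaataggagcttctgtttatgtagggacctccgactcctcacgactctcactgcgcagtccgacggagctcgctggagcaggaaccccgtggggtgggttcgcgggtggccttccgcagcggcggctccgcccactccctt

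Upstream sequences were given for 36 of the 47 members. The element CCGGAAG, a binding motif of the GABPA factor that acts on many nuclear genes of mitochondria, occurred on either strand in 6 of these 36 (16.7%), against 7.83% of 27025 genes. The cyclic AMP response element TGACGTCA occurred in 2 of 36 (5.56%) and in 1.77% of all genes. No member's window held the NRF1 motif, found in 0.877% of all genes, or the ERR motif TCAAGGTCA, found in 0.422%. These matches describe the letters of the window and were not tested. Besides the 4 genes printed, CCGGAAG was found upstream of Slc25a17, Slc25a38 and Slc25a54, and TGACGTCA upstream of Slc25a25.

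Values below are log2 signal on a scale where the array's 75th percentile is 0, so that a difference of 1 is a doubling, and they run from control 1 to 4 and then from dtg 1 to 4. A level belongs to its own probe and is not set against that of another gene. The 75th percentile lay between 679.7 and 946 intensity units, 59.1% to 71.5% of probes were well above background, and no spot was saturated. The arrays lay on 2 slides with 2 hearts of each group, and slide and scan coincided. Cardiomyocyte markers (6 of 6 kept) averaged 8.82 to 8.91 in control and 8.8 to 8.94 in dtg hearts. Adipocyte markers (6 of 6 kept) averaged -3.68 to -2.88 in control and -3.58 to -3.04 in dtg hearts. In dtg hearts 1 of them had a higher and 5 a lower mean, with a median difference of -0.25. Of the brown fat markers Cidea and Dio2 were kept and Ucp1 and Elovl3 were not. Acta1, Ckm and Tnnt3 of the skeletal muscle list were kept and the fast myosins Myh1, Myh2 and Myh4 were not. Of the liver genes Ttr and Cps1 were kept and Alb and Apoa1 were not. The mean of the 3 atrial markers Myl7, Myl4 and Sln varied widely in both groups, with 4.83, 2.17, 5.93 and 6.58 in control and 4.64, 2.24, 2.77 and 6.07 in dtg hearts. All 3 had a lower mean in dtg hearts, with a median difference of -0.98. The targeted gene Igf1r read 0.18, 0.21, 0.38 and 1.04 in control and -0.30, -0.21, 0.17 and 0.40 in dtg hearts. The groups overlapped, and limma's adjusted p for the difference of -0.43 (SE 0.24) was 1. Leaving out single hearts moved this difference between -0.56 (dtg 4 left out) and -0.24 (control 4 left out). It was negative on both slides, at -0.14 on the first and -0.73 on the second. Where the Igf1r probe lies relative to exon 3 is not known here.

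No carrier gene differed between dtg and control hearts beyond the spread of the samples. Of the 38 carriers, 17 had a higher and 21 a lower mean in dtg hearts, against 55.4% higher and 44.6% lower of all features. Limma called 0 carriers at an adjusted p under 0.05, as it called 0% of all features in either direction. Carriers at an unadjusted p under 0.05 numbered 0 as well, against 0.746% of all features (0.616% higher and 0.131% lower in dtg, or 132 and 28). With quantile normalization the latter split was 97 and 98, and with normexp 22 carriers were higher and 16 lower. The 0.746% of all features lay below the share of 0.05 that chance gives on average with a calibrated test. That 0 carriers reached this level therefore does not show that they were unchanged. For 0 carriers did all dtg values lie on one side of all control values, against 0.518% of features (0.336% above and 0.182% below). The median difference was -0.011, beside 0.015 over all features, and single carriers ranged from -0.35 to 0.49.

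How small a difference these arrays could bound is given by the errors. The median SE of a carrier's difference was 0.16 (0.178 over all features), so that a difference of 0.368 was needed to reach an unadjusted p of 0.05. For 31 of 38 carriers the 95% confidence interval lay within a change of 1.5-fold in either direction, and for 37 of 38 within 2-fold. Slc25a18 was the one whose interval went beyond 2-fold.

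**Figure D1:**
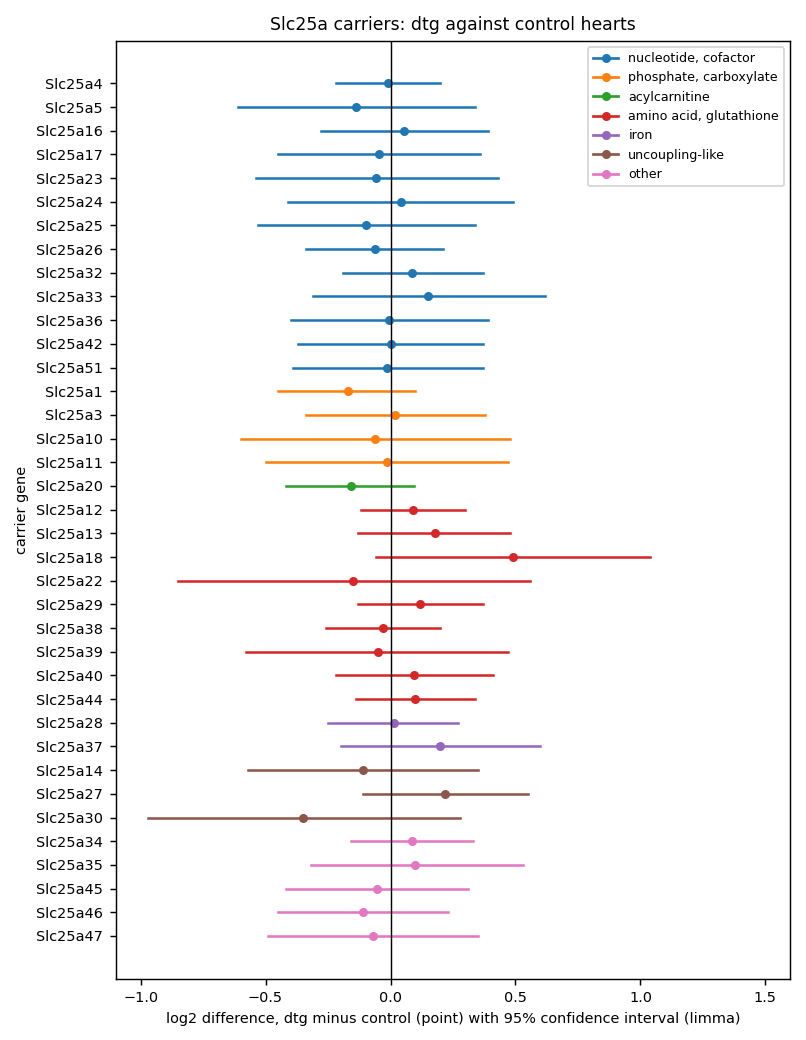
Log2 difference between dtg and control hearts (dtg minus control, n = 4 each) for 37 of the 38 kept carriers, by role, with the 95% confidence interval from limma. Points run from -0.35 (Slc25a30) to 0.49 (Slc25a18), and every interval includes 0.

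The carriers of adenine nucleotides, coenzyme A and other cofactors showed 5 higher and 9 lower means among 14 kept, with a median difference of -0.011. Slc25a4, the ADP/ATP carrier isoform of heart and muscle, was the steadiest. Its values were 9.23, 9.16, 9.11 and 9.19 in control and 9.16, 9.12, 9.12 and 9.26 in dtg hearts, a range of 1.11-fold over 8 hearts. The groups overlapped almost completely, at 9.17 ± 0.05 (SD, n = 4) and 9.17 ± 0.067 (SD, n = 4). The difference of -0.0089 (SE 0.09) had a 95% confidence interval from -0.22 to 0.20. Its probe was printed as 10 spots, of which 9 or 10 were used per array, and their coefficient of variation was 8.78% to 13.6%. The SD of the gene over the 8 hearts was 0.055.

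Slc25a5, the ADP/ATP carrier isoform found in most tissues, varied more. Control hearts read 3.81, 3.82, 3.35 and 4.09, and dtg hearts 3.58, 3.49, 3.38 and 4.08, a range of 1.67-fold. The highest heart of each group was number 4 and the lowest number 3, and limma gave the difference of -0.14 (SE 0.21) an adjusted p of 1. Slide 1 alone gave 0.014 and slide 2 alone -0.29. A pseudogene of Slc25a5 is annotated, and whether the probe also binds its transcript was not tested. Slc25a42, a coenzyme A carrier, read 3.55, 3.57, 3.93 and 3.27 in control and 3.60, 3.71, 3.70 and 3.32 in dtg hearts. Its means were equal within 0.0014 (SE 0.16), and heart 4 was the lowest of each group.

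Among the other 11 kept carriers of this role the differences lay between -0.10 (Slc25a25) and 0.15 (Slc25a33). Slc25a25, Slc25a24 and Slc25a23 are the calcium-regulated carriers that exchange ATP-Mg for phosphate. Slc25a33 and Slc25a36 move pyrimidine nucleotides, Slc25a26 S-adenosylmethionine, and Slc25a51 NAD. Slc25a31, the ADP/ATP carrier of germ cells, was well above background on 1 dtg array and 0 control arrays. Slc25a41 passed on 1 control array and 0 dtg arrays.

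Carriers of phosphate and of di- and tricarboxylates had 1 higher and 3 lower means among 4 kept, with a median difference of -0.037. Slc25a3, which imports phosphate for ATP synthesis, read 5.92, 5.95, 6.37 and 6.36 in control and 5.96, 6.34, 6.31 and 6.07 in dtg hearts. The values fell into a lower and an upper set that each held hearts of both groups, and the difference between groups was 0.018 (SE 0.16, 95% confidence interval -0.34 to 0.38). Slc25a11, the oxoglutarate-malate exchanger of the malate-aspartate shuttle, read 6.49, 6.66, 6.81 and 7.40 in control and 6.52, 6.87, 6.98 and 6.94 in dtg hearts. Control 4 was the highest of the 8, and the difference of -0.014 (SE 0.21) became 0.17 without it. Neither value passed limma's adjusted test.

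Slc25a1, which exports citrate, had one of the smallest unadjusted p-values among carriers with a lower mean in dtg hearts. It read -0.65, -0.95, -0.92 and -0.88 in control and -0.86, -1.09, -0.97 and -1.17 in dtg hearts. The groups overlapped at -0.86 to -0.95, and the difference was -0.17 (SE 0.12, limma unadjusted p = 0.181, adjusted p = 1). It kept its sign on both slides, at -0.22 and -0.13. Slc25a10, the dicarboxylate carrier, differed by -0.061 (SE 0.24). Slc25a21, a carrier of longer oxodicarboxylates, was well above background on 0 arrays.

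The acylcarnitine carrier Slc25a20, which brings long-chain acyl groups into the matrix for oxidation, was a little lower on average in dtg hearts. Control hearts read 2.10, 2.30, 2.20 and 2.33, and dtg hearts 2.27, 2.02, 2.04 and 1.94. Dtg 1 lay inside the control range and the other 3 dtg hearts below it. Limma gave the difference of -0.16 (SE 0.11, 95% confidence interval -0.42 to 0.095) an unadjusted p of 0.183 and an adjusted p of 1. The sign was the same on both slides, at -0.095 and -0.23. With normexp the sign turned, to 0.10.

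Amino acid and glutathione carriers were the role with the highest median difference after iron, 0.094 over 9 kept members, of which 6 were higher and 3 lower. Slc25a12 and Slc25a13 are the calcium-regulated aspartate-glutamate exchangers of the malate-aspartate shuttle, and Slc25a12 is the main form in heart. Slc25a12 read 3.98, 4.12, 4.14 and 4.05 in control and 4.18, 4.23, 4.15 and 4.08 in dtg hearts. Dtg 4 lay inside the control range and the other 3 above it, with a difference of 0.09 (SE 0.093). Slc25a13 read 3.33, 3.41, 3.66 and 3.22 in control and 3.5, 3.79, 3.47 and 3.58 in dtg hearts. Its difference was 0.18 (SE 0.13), and like that of Slc25a12 it was positive within both slides (0.17 and 0.19, against 0.081 and 0.10). The adjusted p of both was 1 (limma).

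Slc25a18, a glutamate carrier, lay close to background: 2 of 4 control arrays and 4 of 4 dtg arrays were well above it. The dtg arrays alone let it meet the filter, and no fold is given, since 2 of the control arrays were not well above background. Control hearts read -5.21, -4.97, -6.05 and -5.58, and dtg hearts -4.78, -5.09, -5.19 and -4.79. Control 2 and control 1 lay within or just below the dtg values, and control 3 was the lowest heart. Taken as measured, the difference was 0.49 (SE 0.24, limma adjusted p = 1), and 0.29 without control 3. Quantile normalization and the authors' values each gave 0.11, and normexp background correction turned the sign, to -0.11.

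Slc25a29, a carrier of basic amino acids, read -0.16, -0.10, -0.36 and -0.28 in control and -0.22, -0.12, 0.04 and -0.11 in dtg hearts. Dtg 3 was the highest heart and the difference was 0.12 (SE 0.11). On slide 1 it was -0.041 and on slide 2 it was 0.28. Slc25a22, the other glutamate carrier, had the widest range of any carrier, 2.7-fold over 8 hearts, from -1.98 in dtg 3 to -0.55 in control 3. The ornithine carriers Slc25a2 and Slc25a15 were well above background on 0 arrays and on 1 array.

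Both mitoferrins, the iron importers of the inner membrane, had higher means in dtg hearts, and neither difference passed the test. Slc25a37, the form of developing red cells, read 1.18, 1.10, 1.5 and 1.14 in control and 1.49, 1.74, 1.01 and 1.45 in dtg hearts. Dtg 3 was the lowest and dtg 2 the highest of the 8, and the difference was 0.20 (SE 0.17, 95% confidence interval -0.20 to 0.60, limma adjusted p = 1). A second, dimmer probe read -2.89, -3.14, -3.57 and -3.51 in control and -2.94, -3.22, -2.78 and -2.83 in dtg hearts, a difference of 0.34 (SE 0.18). Dtg 3 was the lowest heart on the brighter probe and the highest on the dimmer one. Leaving out dtg 2 took the brighter probe's difference to 0.09, and leaving out dtg 3 took it to 0.33. Slc25a28, the mitoferrin of other tissues, read 1.67, 1.78, 1.68 and 1.48 in control and 1.73, 1.76, 1.70 and 1.48 in dtg hearts, a difference of 0.014 (SE 0.11). Erythroid markers (6 of 9 kept) had higher means in dtg hearts for 6 of 6, with a median difference of 0.43. Their mean level was 3.98 to 4.79 in control and 4.34 to 4.94 in dtg hearts. The part of red cells in the Slc25a37 values was not tested.

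Of the 3 carriers that resemble uncoupling proteins, 1 was higher and 2 were lower on average. Slc25a27 read -1.68, -1.81, -1.61 and -2.06 in control and -1.68, -1.73, -1.55 and -1.31 in dtg hearts, a difference of 0.22 (SE 0.14). Control 4 was its lowest and dtg 4 its highest heart. The difference was 0.13 without control 4, 0.14 without dtg 4 and 0.049 without both. Slc25a30 read -2.95, -3.26, -3.14 and -3.83 in control and -3.12, -3.57, -4.25 and -3.64 in dtg hearts. Its difference of -0.35 (SE 0.27) was negative within both slides (-0.27 and -0.43), but the groups overlapped over most of their range. It was -0.15 without dtg 3, -0.23 without control 1, -0.52 without dtg 1 and -0.53 without control 4. Adjusted p was 1 for each in limma's test.

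The 5 remaining carriers had 2 higher and 3 lower means, between -0.11 and 0.10. Slc25a46, a protein of the outer mitochondrial membrane, read 2.51, 2.69, 2.80 and 3.14 in control and 2.55, 2.64, 2.73 and 2.78 in dtg hearts. Its difference of -0.11 (SE 0.15) became 0.0058 without control 4. Slc25a43, Slc25a48, Slc25a53 and Slc25a54 were well above background on 1 array each.

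**Figure D2:**
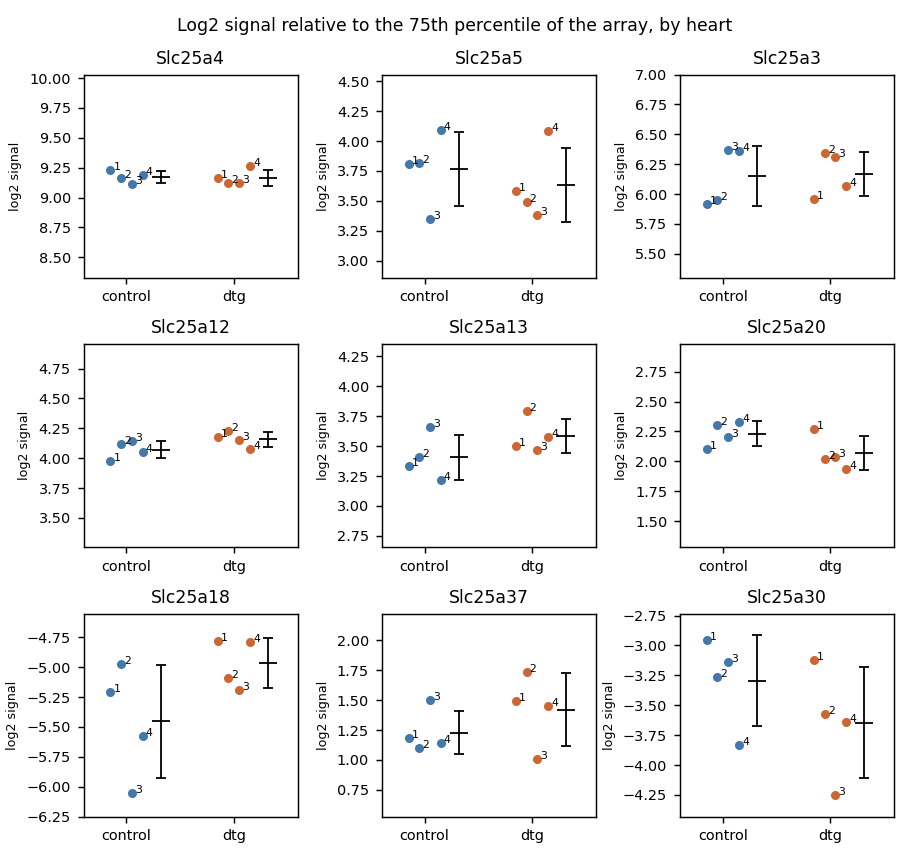
Log2 signal relative to the array's 75th percentile for 9 carriers, with a point per heart (numbered), and the mean and SD of the 4 control and 4 dtg hearts. Each panel spans the same height, and the groups overlap in every panel: Slc25a4 stays between 9.11 and 9.26, while Slc25a18 runs from -6.05 to -4.78.

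Isoforms of one task were compared by the difference between their probes on the same array, which shows whether one changed relative to the other. None of the 9 pairs changed beyond the spread of the hearts (two-sided exact permutation tests, 4 against 4, smallest possible p = 0.0286). Exact p-values ran from 0.286 to 0.771, and the adjusted p over the 9 pairs was 0.771 for each. Slc25a4 minus Slc25a5 was 5.42, 5.34, 5.76 and 5.10 in control and 5.58, 5.63, 5.74 and 5.18 in dtg hearts. Heart 3 was the highest and heart 4 the lowest of both groups, and the change was 0.13 (SE 0.18, exact p = 0.486).

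Slc25a12 minus Slc25a13 was 0.64, 0.72, 0.48 and 0.83 in control and 0.68, 0.44, 0.69 and 0.51 in dtg hearts. The ranges overlapped and the change was -0.088 (SE 0.10, exact p = 0.429). For the mitoferrins, Slc25a37 minus Slc25a28 was -0.49, -0.68, -0.18 and -0.34 in control and -0.24, -0.01, -0.69 and -0.03 in dtg hearts, a change of 0.18 (SE 0.19, exact p = 0.40). Slc25a22 minus Slc25a18 changed by -0.63 (SE 0.50, exact p = 0.286), a value that rests on the Slc25a18 probe, which 2 of 4 control arrays did not measure well above background. Control 3 stood at 5.5 where the other hearts lay between 3.21 and 4.12, and without it the change was -0.19. It was -0.26 with quantile normalization and -0.22 with normexp.

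The other 5 pairs changed by between -0.24 and 0.15. These were Slc25a30 against Slc25a14 (-0.24, SE 0.43), Slc25a36 against Slc25a33 (-0.16, SE 0.34), Slc25a25 against Slc25a24 (-0.14, SE 0.31), Slc25a24 against Slc25a23 (0.10, SE 0.39) and Slc25a40 against Slc25a39 (0.15, SE 0.30). Slc25a40 and Slc25a39 carry glutathione.

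No gene on the lists of carrier partners passed the test either. Over 6 lists, 54 of 55 genes were kept and 0 passed limma's adjusted test in either direction. Of those kept, 21 had a higher and 33 a lower mean in dtg hearts, where 55.4% of all features were higher. The median difference was -0.016, with 0.056 within slide 1 and -0.044 within slide 2. The family members with other symbols (uncoupling proteins and Mtch1 and Mtch2) had 1 of 4 higher. Ucp3, the muscle uncoupling protein, read 2.17, 1.90, 2.19 and 1.98 in control and 2.17, 1.99, 1.85 and 1.65 in dtg hearts (-0.14, SE 0.14). Other transporters of the inner membrane had 7 of 17 higher. Sfxn4, a sideroflexin, read -0.81, -0.73, -0.67 and -0.83 in control and -0.68, -0.62, -0.34 and -0.53 in dtg hearts. Its groups overlapped at a single dtg heart, dtg 1, and the difference of 0.22 (SE 0.11) had an unadjusted p of 0.0833 and an adjusted p of 1 in limma's test.

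The import machinery that inserts carriers into the inner membrane had 7 of 12 higher means. Tomm70a, the receptor that takes up carrier precursors at the outer membrane, differed by 0.17 (SE 0.14). ATP, phosphate and outer membrane partners had 2 of 8 higher, with Ckmt2, the sarcomeric mitochondrial creatine kinase, at 0.088 (SE 0.091). Malate-aspartate and carnitine shuttle enzymes had 1 of 8 higher. The exception was Got2, the mitochondrial aspartate aminotransferase, which differed by 0.066 (SE 0.092). The median difference of these shuttle enzymes was -0.041, and it changed sign between slides, at 0.10 within slide 1 and -0.18 within slide 2. Mitochondrial iron genes had 3 of 5 higher, and Iscu, the scaffold of iron-sulphur cluster assembly, differed by -0.069 (SE 0.11). Adjusted p was 1 for each of these named genes (limma).

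Most of the variation of the carriers lay between hearts of the same group. The median SD of a carrier over the 8 hearts was 0.21, beside 0.248 over all features, and 14 of 38 carriers lay above that median. The median range from the lowest to the highest heart was 1.54-fold. Group accounted for a median of 4.19% of a carrier's variance and slide for 13.9%, beside 2.88% and 17.3% over all features.

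**Figure D3:**
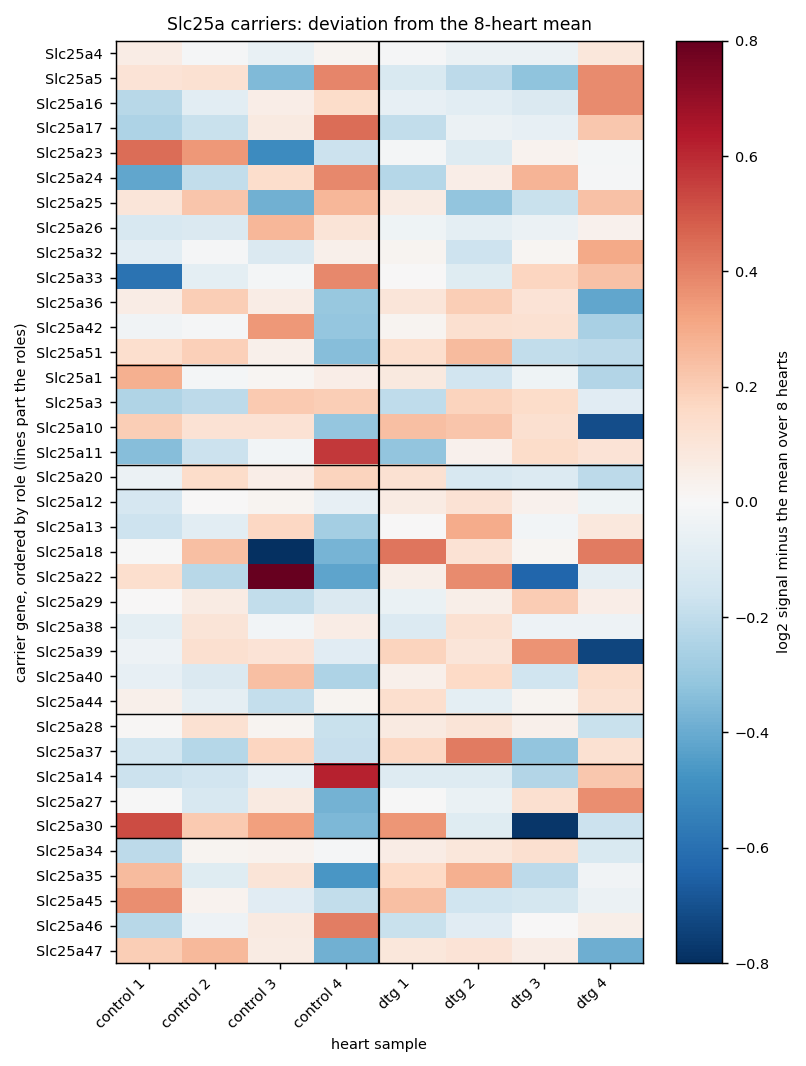
Deviation of 37 of the 38 kept carriers in each heart from the carrier's mean over 8 hearts (log2), with carriers in rows ordered by role and hearts in columns, and values past the ends of the scale in the end colours. The columns of control 4 and dtg 4 hold many of the strong colours, and no row is parted at the line between control and dtg hearts.

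Slc25a3 was the one carrier that differed between the slides in limma's test with group in the model. On slide 1 it read 5.92 (control 1), 5.95 (control 2), 5.96 (dtg 1) and 6.07 (dtg 4). On slide 2 it read 6.37 (control 3), 6.36 (control 4), 6.34 (dtg 2) and 6.31 (dtg 3). The 2 sets did not overlap, the difference was 0.37 (adjusted p = 0.0434), and 95.1% of the gene's variance lay between slides. This was 1 of 38 carriers, where 10.2% of all features passed. At an unadjusted p under 0.05 there were 4 carriers, Slc25a3, Slc25a18, Slc25a24 and Slc25a45, where 21.1% of all features passed. A second probe of Slc25a3 read 2.95, 3.18, 3.28 and 3.53 on slide 1 and 3.24, 4.26, 3.29 and 3.75 on slide 2, so that its slides overlapped.

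Control 4 and dtg 4 shared a pattern that crossed the groups. The deposited files of these 2 hearts, one on each slide, carry a letter in their names that the other 6 lack, and what it marks is not given. For 15 of 38 carriers both hearts lay outside the range of the other 6, on the same side, where this held for 27.6% of all features. Both were higher for 8 carriers (15% of all features) and both lower for 7 (12.6%). These carriers were picked out after their values were seen, and their differences are given without a test.

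Of the 8 higher ones, 7 belong to the nucleotide and cofactor carriers, a role that holds 14 of the 38 kept carriers. Slc25a5, Slc25a16, Slc25a17, Slc25a25, Slc25a32 and Slc25a33 were among these 7, and Slc25a14 of another role was the remaining one. Slc25a36, Slc25a42 and Slc25a51 of the nucleotide and cofactor role were among the lower ones. Slc25a5 was at 4.08 to 4.09 in these 2 hearts and at 3.35 to 3.82 in the other 6. Slc25a14, which resembles uncoupling proteins, was at -0.33 to 0.07 against -0.78 to -0.61. Slc25a17, a peroxisomal carrier of cofactors, was at 1.44 to 1.67 against 0.98 to 1.30. Other gaps were narrow: the nearer of the 2 hearts was at -0.42 against -0.43 for Slc25a25, -1.31 against -1.33 for Slc25a32 and 2 against 1.94 for Slc25a33.

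The lower ones were Slc25a10, Slc25a28, Slc25a36, Slc25a39, Slc25a42, Slc25a47 and Slc25a51. Slc25a10 was at -3.52 to -3.12 in these 2 hearts and at -2.69 to -2.57 in the other 6, whose SD was 0.056. Slc25a47, known from liver, was at -1.12 to -1.11 against -0.67 to -0.47. The mitoferrin Slc25a28 was at 1.48 in both against 1.67 to 1.78. Slc25a36, whose upstream window holds TGACGTCA, was at -1.30 to -1.19 against -0.83 to -0.69. Slc25a25, the other carrier with that element upstream, was higher in these 2 hearts on its brightest probe alone. A link between element and pattern was not tested. Over the other 6 hearts the median SD of a carrier was 0.138, beside 0.192 over all features.

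Of the carriers with this pattern, Slc25a25, Slc25a33 and Slc25a51 had a second kept probe, and none of these second probes repeated it. The second probe of Slc25a25 read -1.66 in control 4 and -1.87 in dtg 4, where the other 6 hearts lay between -2.11 and -1.45. That of Slc25a33 read -0.54 and -0.72, where the other 6 lay between -1.13 and -0.55. The brightest probe of Slc25a51 was lowest in these 2 hearts (1.10 and 1.23, the others 1.24 to 1.69). Its second probe was highest in them, at 1.43 and 1.12, with 0.61, 0.77 and 0.99 in control 1 to 3 and 0.76, 0.91 and 1.02 in dtg 1 to 3. Slc25a46 was not one of the carriers with this pattern. Its brightest probe was highest in control 4 (3.14). Its second probe was lowest in control 4 (-2.32) and dtg 4 (-2.18), where the other 6 lay between -2.17 and -2. Between groups, the probes of 3 genes differed in sign: Slc25a44 (0.10 and -0.092), Slc25a46 (-0.11 and 0.094) and Slc25a51 (-0.013 and 0.00062). None of these probe differences passed limma's test.

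**Figure D4:**
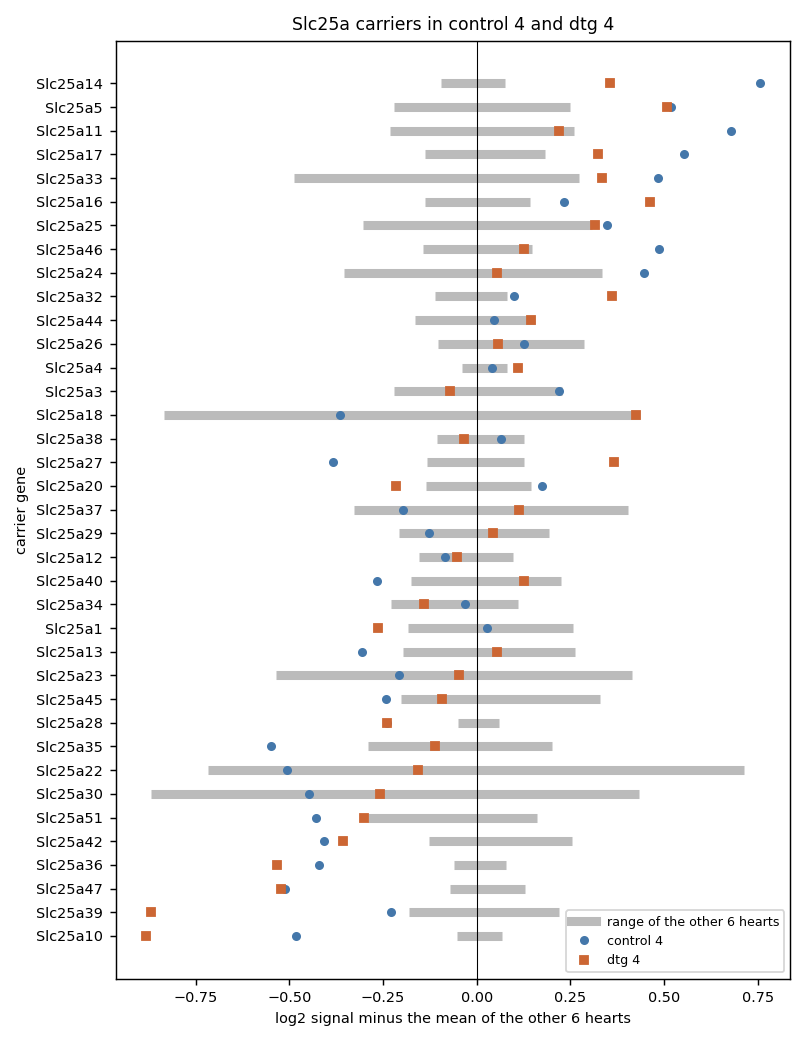
Log2 signal of control 4 (circles) and dtg 4 (squares) minus the mean of the other 6 hearts, for 37 of the 38 kept carriers, with the range of the other 6 hearts as a grey bar. For 14 of those plotted both symbols lie beyond the bar on the same side, such as Slc25a14 at the top, where the 2 symbols average 0.56, and Slc25a10 at the bottom, where they average -0.68.

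Atrial markers were high in these 2 hearts, at 6.58 in control 4 and 6.07 in dtg 4. They were almost as high in control 3 (5.93). Control 3 is one of the other 6 hearts that set the range, so by definition it could not be counted in the pattern. The part of atrial signal in the pattern was not tested. Without control 4 and dtg 4, 18 carriers had a higher and 20 a lower mean in dtg hearts, the median difference was -0.0041, and 0 carriers passed limma's adjusted test. Mean absolute deviations from the carrier's 8-heart mean were largest in control 4 (0.26) and dtg 4 (0.20), and lay between 0.12 and 0.17 in the other 6. Over all features they were 0.35 and 0.29 in these hearts and 0.21 to 0.33 in the others.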

How the data were processed

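RNA of 4 control and 4 dtg hearts was measured on 1-colour arrays, grouped by sample titles. For each array the authors deposited a scanner table from Agilent Feature Extraction 10.7.3.1, whose processed signal is on a linear intensity scale after local background subtraction, per the file headers. A deposited series table holds log2 values. Compared with the scanner files, these are quantile normalized and centred on each probe's median (r of 0.9999 or 1 per column), with column medians between -0.0325 and 0.0323. How that table was made is otherwise not stated.

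Probes were named through accessions in a RefSeq gene table of GRCm38.p6. The array annotation names mm9, so coordinates are given for RefSeq sequences alone. Control spots and outlier flags were left out, spots of a probe averaged, and the array's 75th percentile subtracted on the log2 scale. Limma 3.58.1 (lmFit and eBayes, R 4.3.3) tested differences over 21434 features with Benjamini-Hochberg adjustment, and isoform pairs with exact permutation tests. Confidence intervals are limma's. The number of arrays limits the precision. On simulated data for 21406 features, limma found 2.99% of 67 shifts of 0.5 log2 units, 47.8% of 67 shifts of 1 and 71.2% of 66 shifts of 2. It also made 9 false calls. Whether the simulation held the slide differences and the pattern of control 4 and dtg 4 is not stated here. These shares are therefore not taken as the sensitivity of the comparison of the real hearts.

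Members, roles and lists were chosen with earlier results of these data known. Named genes are Igf1r, the 5 carriers per direction with the smallest unadjusted p, 10 carriers named for their role in heart, the isoform pairs, 1 gene per pathway list by smallest unadjusted p, and carriers whose probes differ in sign. Carriers described by their values in single hearts or their range fall outside that rule and were picked with their values in view. Alternatives were normexp (offset 50, on the pixel median because the mean signal was not used here, also without dark spots, those below their local background), quantile normalization, the authors' values, other filters, the mean of probes, slide and replicate blocks, slides apart, atrial signal as a covariate and each heart left out. The labels do not say that replicate numbers pair the hearts. The values of 1 kept carrier enter the counts and medians but are not reported here.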

Additional observations from a re-analysis of the deposited data

Results flagged for a closer look

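In 78 groups of 4 hearts, 6 values of single hearts stood far from the other 3 of their group (Dixon's criterion at the 95% level, on the gap to the nearest heart over the range). Chance flags about 1 in 20 groups. For Slc25a10, control 4 was at -3.12 where the nearest control heart was at -2.69, and dtg 4 was at -3.52 where the nearest dtg heart was at -2.68. Slc25a14 was at 0.07 in control 4, and the nearest control heart was at -0.61. In dtg 4, Slc25a16 was at -0.19 (nearest -0.63) and Slc25a47 at -1.12 (nearest -0.67). Slc25a34 was at 4.36 in control 1 (nearest 4.56). Of these 6 values, 5 belong to control 4 or dtg 4, the hearts described above. These 5 come from carriers already counted in the pattern of those hearts and rest on the same values, so they are not separate evidence for it.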

How the results depend on the processing

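No carrier and no feature passed limma's adjusted test under any of 23 alternatives, 20 of them planned. The 160 features at an unadjusted p under 0.05 became 13 with normexp, 102 with normexp without dark spots, 413 with no filter, 252 with slide as a block, 724 and 495 within slides 1 and 2, and 98 (without dtg 3) to 331 (without dtg 2) with a heart left out. They became 276 with the file name letter as a block, 182 without control 4 and dtg 4, and 665 without these and dtg 3 in a fit with a slide block. These last 3 settings were chosen after seeing the data. Carriers at that level went from 0 to 1, which was Slc25a18 (slide as a block, within slide 2, without control 2), Slc25a37 (mean of probes) or Slc25a23 (within slide 1), and to 2 (Slc25a18 and Slc25a37) in the last of these settings. Of 38 carriers, 17 were higher in dtg hearts, 22 with normexp and within slide 1, 15 with quantile normalization and the authors' values, and 15 to 21 with a heart left out.

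The labels do not say that replicate numbers pair the hearts. Deviations of same-numbered hearts correlated at 0.54, -0.54, 0.15 and 0.16. The closest dtg heart had the same number for control 1 and control 4, and another number for control 2 and control 3. Hearts numbered 2, and those numbered 4, lay on different slides, so these values cannot decide whether the numbers pair the hearts. With the replicate block, an unadjusted p under 0.05 was reached by 276 features and 0 carriers, and an adjusted p under 0.05 by 0. The unadjusted p of Igf1r (0.108) became 0.0114 with the replicate block, 0.0146 with the file name letter as a block and 0.00276 with the slide block and 3 hearts left out, with an adjusted p of 1 in each (limma).

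Of 38 carriers, the sign turned for 17 with normexp, 13 within slide 1, 12 within slide 2, 9 without control 4 and dtg 4, 9 with the slide block and 3 hearts left out, 5 with atrial signal as a covariate, 2 with quantile normalization, 2 with the authors' values, 1 with normexp without dark spots and 3 to 10 with a heart left out. For the named genes and pairs the values were as follows, and the cause was not tested. With normexp the differences were -0.11 for Slc25a18, -0.062 for Slc25a27, 0.10 for Slc25a20, 0.12 for Slc25a46, 0.12 for Slc25a5, 0.26 for Slc25a4, 0.24 for Slc25a11, 0.041 for Ucp3, 0.21 for Iscu and -0.16 for Slc25a40 minus Slc25a39. On control 4 and dtg 4 its fitted background mean was -1740 and -461.9, where 12 and 4 spots were darker than their surroundings. Without dark spots Slc25a42 was at -0.0045. With quantile normalization Slc25a3 was at -0.023 and Slc25a42 at -0.0028, and with the authors' values at -0.023 and -0.0042. Within slide 1 the values were -0.041 for Slc25a29, 0.06 for Slc25a46, 0.014 for Slc25a5, 0.016 for Slc25a4, 0.15 for Slc25a11, -0.12 for Slc25a28 and -0.10 for Slc25a42. Within slide 2 they were -0.04 for Slc25a3, -0.089 for Slc25a37 minus Slc25a28, -0.40 for Slc25a24 minus Slc25a23, 0.42 for Slc25a36 minus Slc25a33, 0.017 for Slc25a30 minus Slc25a14 and -0.21 for Slc25a40 minus Slc25a39. With atrial signal as a covariate they were 0.0067 for Slc25a4, 0.042 for Slc25a11, -0.039 for Slc25a28 and -0.045 for Slc25a42. With a slide block and 3 hearts left out (control 4, dtg 3, dtg 4), Slc25a27 was at -0.01 and Slc25a42 at -0.074. Without control 4 and dtg 4, Slc25a11 was at 0.14, Slc25a42 at -0.015 and Slc25a40 minus Slc25a39 at -0.15.

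With each heart left out in turn, differences ranged from -0.057 to 0.091 for Slc25a3, -0.041 to 0.0099 for Slc25a4, -0.13 to 0.17 for Slc25a11, -0.042 to 0.077 for Slc25a28, -0.10 to 0.12 for Slc25a42 and -0.20 to 0.0058 for Slc25a46. For pairs the range was -0.17 to 0.33 for Slc25a24 minus Slc25a23, -0.34 to 0.0078 for Slc25a25 minus Slc25a24, -0.41 to 0.031 for Slc25a36 minus Slc25a33 and -0.12 to 0.34 for Slc25a40 minus Slc25a39.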
